A study of Mus musculus with 6 samples.

Results

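The genes described here are 8 developmental regulators of the Eya, Six-homeobox and Dach families: Eya1, Eya2, Eya3, Eya4, Six2, Six4, Six5 and Dach1. They were taken by name from the 22180 genes that the arrays measured, and each had 1 probe set of its own, so the rule of keeping the probe set with the highest mean intensity left no choice. The families were chosen by the difference in Eya1 intensity between the genotypes, which was known beforehand, so the values of Eya1 are given as a description. The 6 arrays held mouse acute myeloid leukaemia cells, 3 of genotype WT and 3 of genotype Evi1 Tg, that is, carrying a transgene for the zinc finger transcription factor Evi1, a product of the gene Mecom. All 6 samples shared the C57BL/6J background and the fusion oncogene MLL-AF9, and all were untreated. Each was total RNA of 10000 green fluorescent leukaemia cells collected by a cell sorter. The promoter and the form of the Evi1 transgene, the age of the mice, and whether the 3 samples of a group came from separate animals could not be read from the sources used here. The p-values set a difference against the spread among these samples, and so may not cover the variation between animals.

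Eya proteins are unusual in joining transcriptional co-activation to a phosphatase activity. They lack a DNA-binding domain and reach DNA through Six-family (sine oculis homeobox) proteins, which carry a homeodomain. Dach proteins act in the same network, mostly as co-repressors. The network is known from the development of eye, ear, kidney and muscle, and Eya1 is known as a target gene of MLL fusion proteins in blood progenitors.

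Promoter windows from RefSeq (GRCm38.p6), each reaching from 250 bases before to 50 bases after a transcription start, were matched for 6 of the 8 genes: Eya3, Eya4, Six2, Six4, Six5 and Dach1. Eya1 and Eya2 were not matched. Each window was searched on both strands for the MEF3 site TCAGGTTTC, which Six-family proteins bind, the ETS site CCGGAAGT, the site GACAAGATA of the amino-terminal zinc fingers of Evi1, and the GATA site AGATAA. The 3 sequences below belong to the genes other than Eya1 with signal above background in the leukaemia cells. Capitals mark a match, which here lies on the strand opposite to the gene in both cases.
Six4, chr12:73113326-73113354, minus strand: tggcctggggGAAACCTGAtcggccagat
Eya3, chr4:132639023-132639051, plus strand: tcccgcatctACTTCCGGtggctagggat
Dach1, chr14:98169766-98170015, minus strand: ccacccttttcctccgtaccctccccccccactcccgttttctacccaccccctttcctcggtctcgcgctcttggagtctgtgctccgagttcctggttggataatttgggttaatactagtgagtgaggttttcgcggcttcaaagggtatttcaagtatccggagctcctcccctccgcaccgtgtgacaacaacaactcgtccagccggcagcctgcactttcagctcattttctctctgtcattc

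The MEF3 site was found in Six4 alone among the 6 genes, and in 0.429% of all 32851 promoter windows. Six4 had more than 1 window, and the site lay in window 1 and not in window 2. The ETS site was found in Eya3 alone, and in 3.89% of all windows. The GATA site was found in Six2, and in 11.2% of all windows, and the Evi1 site in 0 of the 6 genes and 0.119% of all windows. The Dach1 window held none of the 4 motifs. GC content ran from 54% in the Dach1 window to 69.3% in one of the Eya4 windows, against a median of 52.7% over all windows. A match describes letters only. The 4 motifs were picked after values and sequences had been seen, and the shares count windows rather than genes, so they are no test of a match.

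The arrays were checked before the genes were compared. Median intensities lay between 51.6 and 55.4, and Pearson correlations across genes, which are not independent replicates, were 0.978 to 0.992 within groups and 0.972 to 0.985 between them. All 16 of 16 myeloid marker genes lay above background in at least 1 group, where background is an intensity of 85.0, the 90th percentile of 69 measured genes listed as silent in blood cells. The 9 measured T and NK cell markers and the 7 measured B cell markers all lay below it. Of 18 genes of stroma and endothelium 4 lay above it. So did 1 of 6 measured erythroid markers and 3 of 6 measured markers of megakaryocytes and platelets. The summed intensities of all marker lists had overlapping ranges in the genotypes. For megakaryocytes and platelets the sums ran from 382 to 773 in WT and from 400 to 503 in Evi1 Tg. Of the marker genes 0 passed the limma test between genotypes, against 0.113% of all genes. A count of 0 is near that share and does not show equal cell content. The 2 Mecom probe sets had WT means of 36.9 and 31.1 and Evi1 Tg means of 38.6 and 30.1, all below background, so these probes did not show the transgene, and the genotypes are known from the labels alone.

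Eya1 was the gene of the 8 that separated the genotypes. It lies on chromosome 1 (14168953 to 14311035, GRCm38.p6). Its intensity was 1022, 1529 and 1478 in WT 1, 2 and 3 and 52.2, 52.2 and 62.1 in Evi1 Tg 1, 2 and 3. All 3 WT arrays were high, all 3 Evi1 Tg arrays were below background, and the groups did not overlap. The log2 level was 10.4 ± 0.32 (SD, n = 3) in WT and 5.79 ± 0.14 (SD, n = 3) in Evi1 Tg, a difference of -4.58 on the log2 scale (SE 0.169, 95% interval -4.98 to -4.18). Since the Evi1 Tg signal lay under background, this value depends on the background level and is no exact size of a change. The WT mean exceeded the background intensity 15.6-fold. In bulk samples, fewer cells that express a gene and less RNA per cell cannot be told apart.

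**Figure D1:**
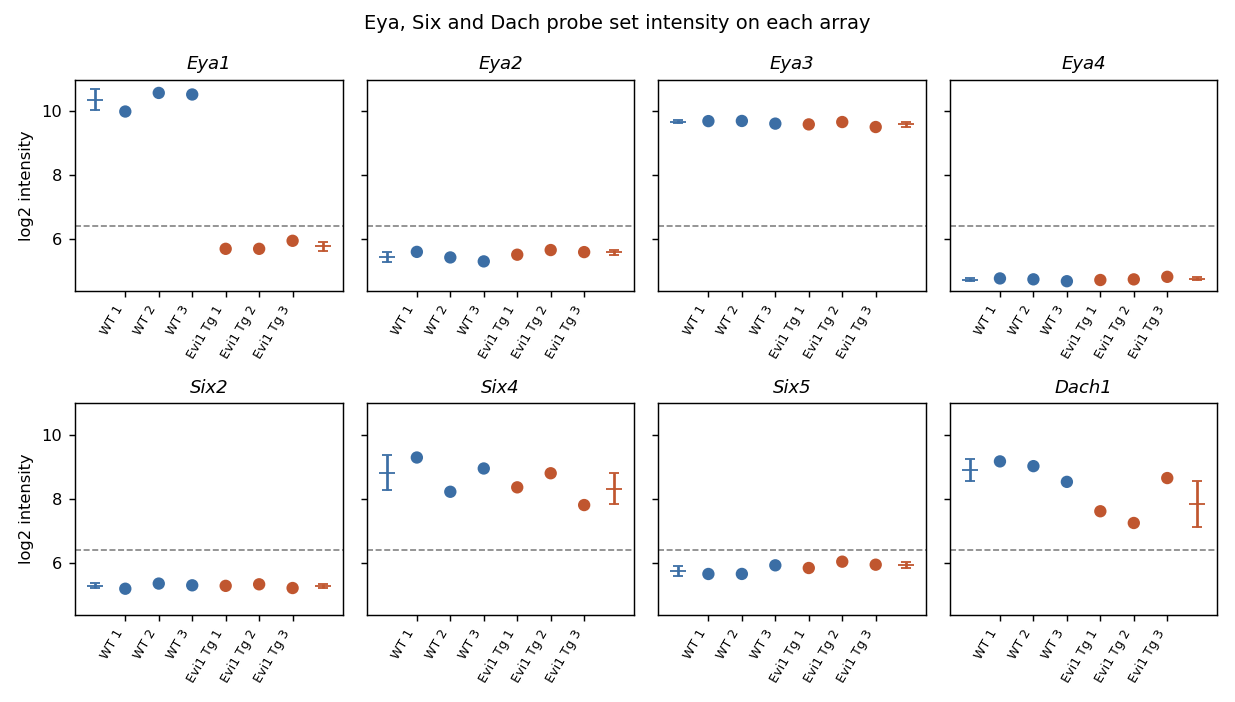
Log2 intensity of each gene (y axis) on each array (x axis), with WT in blue and Evi1 Tg in orange; bars at the sides give the group mean ± SD (n = 3) and the dashed line is the background intensity of 85.0. Eya1 is above the line on the 3 WT arrays and below it on the 3 Evi1 Tg arrays, Eya3, Six4 and Dach1 are above it on all 6, and Eya2, Eya4, Six2 and Six5 are below it on all 6.

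The WT arrays themselves differed for Eya1 by 1.50-fold between WT 1 and WT 2, and the Evi1 Tg arrays by 1.19-fold. With any one array left out the difference lay between -4.77 (without WT 1) and -4.47 (without WT 2). These values describe the difference by which the families were chosen and are no test of it.

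None of the other Eya genes passed the test. Eya3, on chromosome 4, which encodes the family member with broad expression, read 830, 833 and 786 on the WT arrays and 773, 814 and 730 on the Evi1 Tg arrays. The groups overlapped, since Evi1 Tg 2 lay above WT 3. Its difference was -0.081 on the log2 scale (SE 0.0815, 95% interval -0.27 to 0.11, adjusted p = 0.830 by limma). Only 11.5% of all genes had a smaller range over the 6 arrays. Eya3 thus had a steady signal above background in both genotypes, and the interval does not reach a change of 0.3 in size.

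Eya2 and Eya4 were below background on every array. Eya2, on chromosome 2, read 48.8, 43.3 and 39.7 on the WT arrays and 45.9, 50.8 and 48.6 on the Evi1 Tg arrays, with overlapping groups and a log2 difference of 0.14 (SE 0.101, adjusted p = 0.722 by limma). Eya4, on chromosome 10, is known as a deafness and cardiomyopathy gene. It read 27.5, 26.9 and 25.9 on the WT arrays and 26.5, 26.9 and 28.4 on the Evi1 Tg arrays, with overlapping groups and a log2 difference of 0.029 (SE 0.0773, adjusted p = 0.953 by limma). Signal near background compresses a difference, so these values do not show that the genes were equal. Neither probe set rose above background on the arrays where Eya1 was low.

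Among the Six-family genes, the DNA-binding partners of Eya proteins, Six4 alone lay above background. Six4, on chromosome 12 (73099609 to 73114031), read 631, 300 and 497 on the WT arrays and 330, 448 and 225 on the Evi1 Tg arrays. The groups overlapped, with WT 2 below Evi1 Tg 1 and 2, and the arrays of 1 genotype differed by 2.10-fold in WT and 1.99-fold in Evi1 Tg. Its log2 difference was -0.50 (SE 0.329, 95% interval -1.28 to 0.28, adjusted p = 0.693 by limma), smaller than the SD of 0.55 among the WT arrays. The range of Six4 over all 6 arrays was 2.80-fold, and 98.2% of genes had a smaller one. The difference depended on single arrays: it was -0.26 without WT 1, -0.24 without Evi1 Tg 3, -0.80 without WT 2 and -0.74 without Evi1 Tg 2. RefSeq places 1847 bases of Six4 inside the bounds of Mnat1, a subunit of the CDK-activating kinase, and whether the Six4 probe set lies in that stretch was not examined. Mnat1 read 335, 301 and 447 on the WT arrays and 314, 332 and 328 on the Evi1 Tg arrays, a log2 difference of -0.13 (SE 0.148, adjusted p = 0.852 by limma).

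Six2, which keeps kidney progenitors undifferentiated, and Six5, a neighbour of the myotonic dystrophy kinase gene Dmpk, were below background. Six2, on chromosome 17, read 36.7, 41.1 and 39.6 on the WT arrays and 39.1, 40.4 and 37.3 on the Evi1 Tg arrays. The groups overlapped and the log2 difference was -0.0059 (SE 0.0836, adjusted p = 0.993 by limma). Six5, on chromosome 7, read 50.6, 50.6 and 61.0 on the WT arrays and 57.5, 66.0 and 61.8 on the Evi1 Tg arrays. WT 3 lay among the Evi1 Tg arrays, and the log2 difference was 0.20 (SE 0.107, 95% interval -0.057 to 0.45, adjusted p = 0.605 by limma).

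Dach1, the co-repressor of the network, had the next largest difference after Eya1 but did not pass the test. It lies on chromosome 14 (97786846 to 98169765). Its intensity was 580, 523 and 372 on the WT arrays and 197, 153 and 404 on the Evi1 Tg arrays. Evi1 Tg 1 and 2 were below every WT array, while Evi1 Tg 3 lay above WT 3, so the groups overlapped. The log2 level was 8.92 ± 0.33 (SD, n = 3) in WT and 7.84 ± 0.73 (SD, n = 3) in Evi1 Tg. The log2 difference was -1.07 (SE 0.356, 95% interval -1.91 to -0.23, exact two-sided permutation p = 0.2, adjusted p = 0.359 by limma), and 0.658% of all genes had a difference larger in size. The arrays of the Evi1 Tg group differed among themselves by 2.65-fold, against 1.56-fold in WT. Without Evi1 Tg 3 the difference was -1.48 (SE 0.218, adjusted p = 0.0972 by limma), and without Evi1 Tg 2 it was -0.78 (SE 0.341, adjusted p = 0.790 by limma). With Evi1 Tg 1 and 2 averaged into 1 sample it was -0.87 (SE 0.383, adjusted p = 0.760 by limma).

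**Figure D2:**
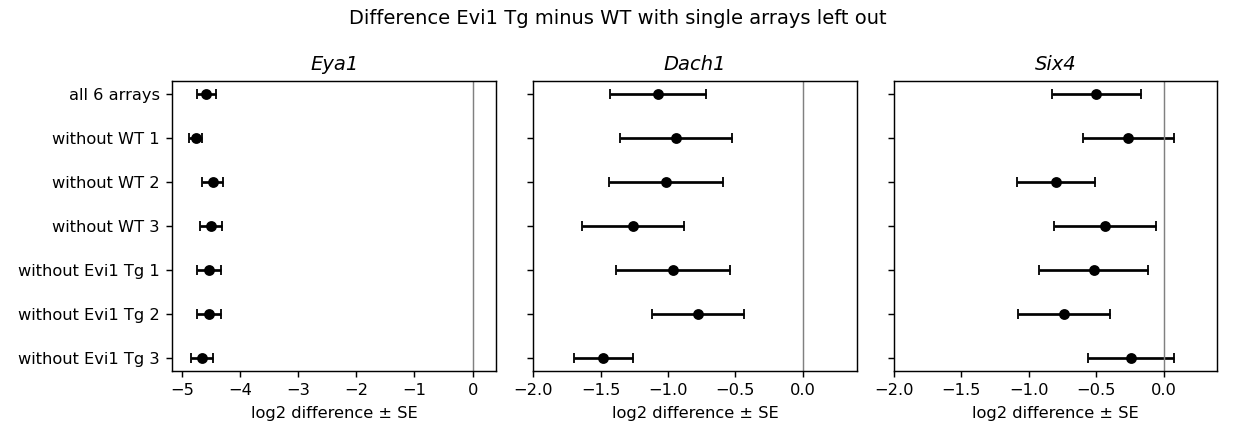
Log2 difference Evi1 Tg minus WT (x axis, ± SE, with a wider scale for Eya1) for Eya1, Dach1 and Six4 in the fit of all 6 arrays and with each array left out (y axis). Eya1 stays between -4.77 and -4.47, while Dach1 spans -1.48 to -0.78 and Six4 -0.80 to -0.24.

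Over the 8 genes, 5 differences lay below 0 and 3 above, with a median of -0.043, against a median of 0.012 over all 22180 genes. Limma with Benjamini-Hochberg adjusted p under 0.05 called 1 of the 8 lower in Evi1 Tg and 0 higher, against 0.104% of all genes called lower and 0.00902% called higher. That gene was Eya1, whose fall was known when the genes were chosen, so nothing is read from this count. At an unadjusted p under 0.05 there were 2 of the 8, Dach1 and again the chosen Eya1, against 10.3% of all genes. The groups did not overlap, with Evi1 Tg lower, for 1 of the 8, which was also Eya1. The share of all genes was 7.47%, or 14.6% when both directions are counted. An intensity above background in at least 1 genotype was found for 4 of the 8, against 43% of all genes. Eya1 was among them through its WT level alone. Since each of these counts includes Eya1, nothing is read from them either. With 3 arrays a genotype, 0.1 is the smallest two-sided p that an exact permutation test allows.

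**Figure D3:**
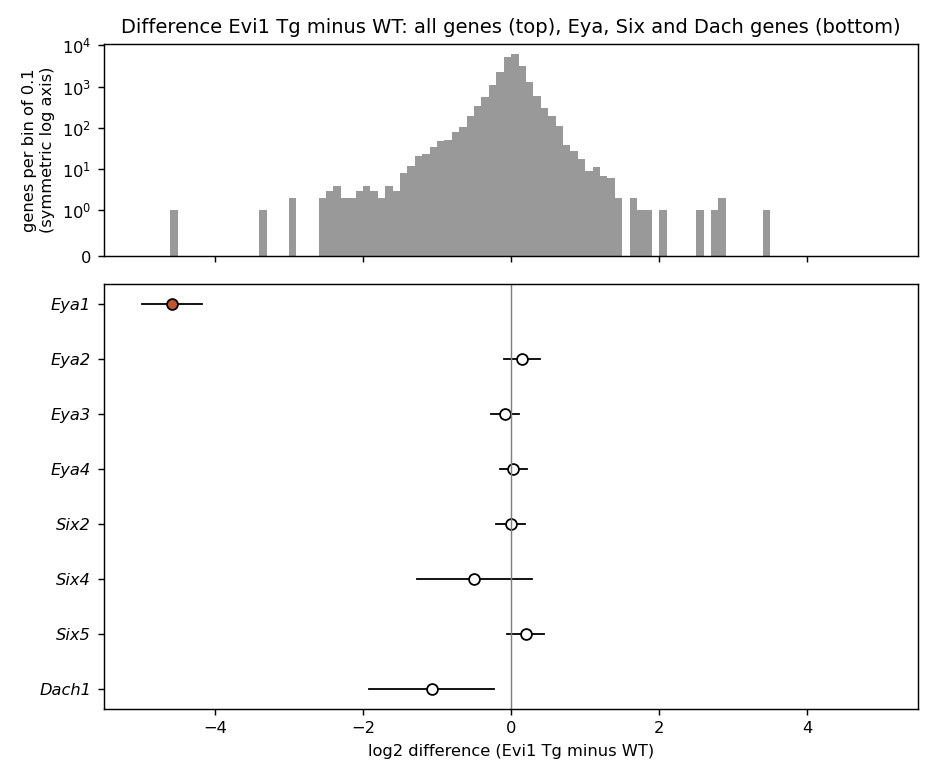
Log2 difference Evi1 Tg minus WT (x axis): the upper panel counts all 22180 genes in bins (symmetric log axis), and the lower panel gives each of the 8 genes with its 95% interval, filled where limma adjusted p was under 0.05. Eya1 lies at -4.58, with its Evi1 Tg mean below background, and the other 7 lie between -1.07 and 0.20.

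Other members of the 3 families with a probe set of their own were also below background. The WT and Evi1 Tg means were 48.0 and 50.3 for Six3, 53.4 and 56.7 for Six6, and 37.0 and 37.2 for Dach2, with adjusted p values by limma of 0.859, 0.801 and 0.990.

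The wider network was examined through lists of genes known to act with these regulators. All lists were chosen with earlier results of these data known, so their counts are a description and no test. Over all genes, limma called 0.113% in either direction, 10.3% had an unadjusted p under 0.05, 14.6% had groups that did not overlap and 46.5% had a difference below 0, and a count of 0 called in lists of this length is near that background. Of 34 measured genes of the Pax, Eya, Six-family and Dach network and its co-repressors, limma called 0, and 4 had an unadjusted p under 0.05. The groups did not overlap for 6, and 12 had a difference below 0 and 22 above, with a median of 0.036. Of the 34 genes, 13 lay above background. Pax8, a paired box factor of thyroid and kidney, had a log2 difference of -0.59 (SE 0.106, adjusted p = 0.134 by limma), with 72.6, 87.5 and 75.9 on the WT arrays and 56.2, 48.1 and 51.9 on the Evi1 Tg arrays. Both group means of Pax8 were below background. Sin3a, the scaffold of a histone deacetylase complex, had a difference of 0.37 (SE 0.110, adjusted p = 0.302 by limma), with 502, 527 and 629 on the WT arrays and 690, 763 and 686 on the Evi1 Tg arrays.

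Of 21 measured substrates and partners of Eya phosphatases, limma called 0, against 0.113% of all genes, and 4 had an unadjusted p under 0.05, against 10.3%. The groups did not overlap for 5, against 14.6% of all genes. Of the differences, 9 lay below 0 and 12 above, with a median of 0.054. The mitotic kinase Plk1 had a difference of 0.66 (SE 0.212, adjusted p = 0.339 by limma), from a mean of 824 in WT to 1305 in Evi1 Tg. It read 744, 646 and 1166 on the WT arrays and 1258, 1235 and 1431 on the Evi1 Tg arrays, so WT 3 lay close to Evi1 Tg 2. The G protein subunit Gnaz, whose protein binds Eya2, had a difference of 0.31 (SE 0.103, adjusted p = 0.367 by limma), with both means below background.

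Of 22 measured genes listed as targets of Six-family and Dach proteins, limma called 0, against 0.113% of all genes, and 4 had an unadjusted p under 0.05, against 10.3%. The groups did not overlap for 4, against 14.6% of all genes. There were 7 differences below 0, where all genes had 46.5% below 0, and 15 above, with a median of 0.053. Slc12a2, a sodium, potassium and chloride cotransporter, read 71.2, 48.6 and 101 on the WT arrays and 32.4, 30.7 and 26.9 on the Evi1 Tg arrays, a difference of -1.24 (SE 0.249, adjusted p = 0.171 by limma). The groups did not overlap, and 1 of the 6 arrays, WT 3, lay above background. Cdkn1a, the cell cycle inhibitor p21, had a difference of -0.48 (SE 0.106, adjusted p = 0.195 by limma), from a mean of 2556 to 1827.

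Among 18 measured genes listed, like Eya1, as targets of MLL fusion proteins, limma called 0, against 0.113% of all genes. An unadjusted p under 0.05 was found for 8 of the 18, against 10.3% of all genes, and the groups did not overlap for 8 of the 18, against 14.6%. This list, too, was chosen with earlier results of these data known, so nothing is read from these counts. Here 7 differences lay below 0 and 11 above, and the median was 0.11. Lmo2, a bridging factor of blood stem cells, read 309, 349 and 304 on the WT arrays and 440, 490 and 486 on the Evi1 Tg arrays, a difference of 0.56 (SE 0.0929, adjusted p = 0.113 by limma). Hoxa7, a homeobox gene, had a difference of 0.50 (SE 0.108, adjusted p = 0.195 by limma), with means of 220 and 311. The differences of the list ran from -1.09 for Cpeb2 to 1.11 for Satb1.

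Neither of the genes next to Eya1 on chromosome 1 passed the test. The nearest measured genes were Gm5523, whose end lies 382023 bases away, and Msc, which encodes a repressor of muscle differentiation and starts 442308 bases away on the other side. Gm5523 read 314, 273 and 245 on the WT arrays and 281, 272 and 263 on the Evi1 Tg arrays, a difference of -0.020 (SE 0.108, adjusted p = 0.978 by limma). Msc lay near background, with means of 66.8 and 78.8 and a difference of 0.24 (SE 0.124, adjusted p = 0.585 by limma). It read 67.4, 70.8 and 62.3 on the WT arrays and 72.9, 93.5 and 71.8 on the Evi1 Tg arrays. Its groups did not overlap, as for 14.6% of all genes, and Evi1 Tg was the higher. For Dach1, the nearest measured genes were Klhl1, with means of 43.7 and 45.8, and Mzt1, a component of the microtubule-nucleating complex, with means of 558 and 557. The difference of Mzt1 was -0.0039 (SE 0.272, adjusted p = 0.998 by limma). Dmpk, 722 bases from Six5, was below background like Six5 itself, with means of 59.9 and 50.6.

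The genes with the profile most like that of Eya1 were sought by the root mean square difference between log2 values over the 6 arrays, each gene centred on its own mean. The closest were Rnase2a (0.984), a ribonuclease of eosinophils, Clec3a (1.09), Saa3 (1.16), an acute phase protein, Fer (1.16), a tyrosine kinase, Sp9 (1.17), a zinc finger factor, Nxpe5 (1.18), Platr4 (1.18) and Tfpi (1.20), an inhibitor of coagulation. All but Saa3 had, like Eya1, an Evi1 Tg mean below background, so the sizes of their differences are not set against each other. The genes were chosen for this likeness, so their shared direction is no test. Rnase2a read 446, 326 and 196 on the WT arrays and 42.7, 30.0 and 51.1 on the Evi1 Tg arrays. Its highest WT array was WT 1, which was the lowest WT array for Eya1. Saa3 stayed above background in Evi1 Tg, with 341, 500 and 399 against 2135, 1861 and 2214 in WT.

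**Figure D4:**
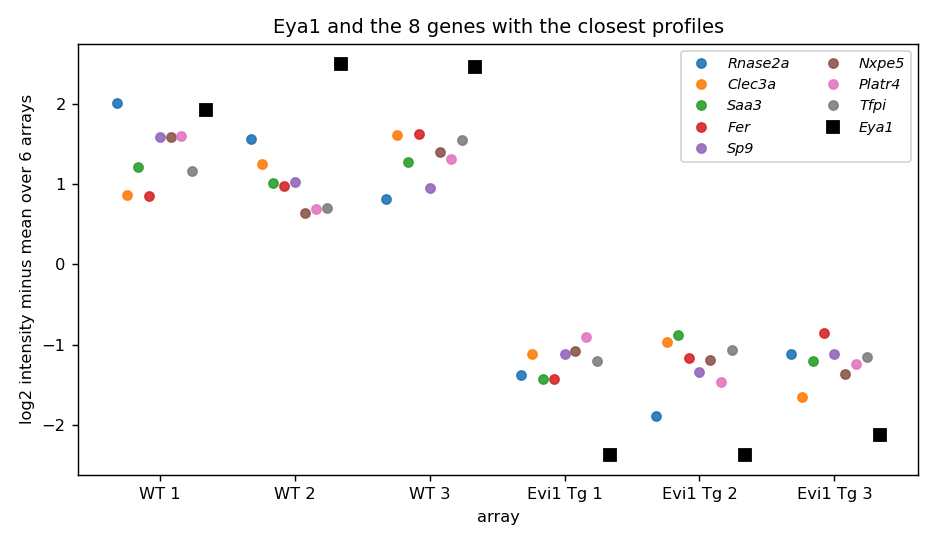
Log2 intensity minus the gene's mean over 6 arrays (y axis) for Eya1 (black squares) and the 8 genes with the closest profiles (circles) on each array (x axis). Eya1 lies outside the other genes on both sides on 5 of the 6 arrays, while on WT 1 Rnase2a is slightly higher. All of these genes but Saa3 had an Evi1 Tg mean below background, so this order depends on the background level.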

How the data were processed

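The deposited table held probe set intensity values, all positive and reaching 14719, which places them on a linear scale. The authors' background correction, normalization and summarisation of these intensity values were not given in the sources used here. Labelling used the GeneChip WT PLUS reagents, as the labels' protocols state. Values were turned into log2 with no pseudocount. Of 34351 probe sets, 23521 had 1 gene symbol, which gave 22180 genes. The 3 Evi1 Tg and 3 WT arrays were compared in limma 3.58.1 under R 4.3.3 (lmFit, then eBayes), p-values were adjusted by Benjamini-Hochberg across the whole gene table, and 0.05 was the threshold. The procedure was tested on simulated data. Figures were drawn in matplotlib 3.10.9.

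The 8 genes and all lists were chosen with earlier results of these data known, and the lists came from general knowledge. Beyond the 8, the named genes were the 2 with the smallest p of each list (0 passed), the nearest measured neighbours, and the 8 closest profiles to Eya1, with predicted genes, small RNAs and receptor families left out. Six3, Six6, Dach2, Cpeb2, Satb1 and the 4 motifs were picked after values and sequences had been seen. Of 79 genes listed as silent, 69 were measured. The number of arrays limits the precision.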

Additional observations from a re-analysis of the deposited data

How the results depend on the processing

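The alternatives changed the scaling between arrays (quantile, median), dropped dim genes, used trend and robust moderation, none, or weights per array, added a replicate block, averaged or kept all probe sets, or left out an array. Averaging Evi1 Tg 1 with Evi1 Tg 2 was added after seeing the data. The difference of Eya1, by which the families were chosen, is a description under each of them: leaving out 1 array gave -4.77 to -4.47, and without moderation it was -4.58 (adjusted p = 0.173 with limma's lmFit), where 0 of the 8 genes and 0 of all genes were called. The other 7 genes passed in none of the alternatives in which they were tested, and with dim genes dropped Eya2, Eya4, Six2 and Six5 were not tested. The sign was not fixed for 2 genes below background: with 1 array left out Eya4 ran from -0.0010 to 0.049 and Six2 from -0.051 to 0.030, and with array weights Six2 was 0.021. With the replicate number as a block, Eya1 was -4.58 (limma adjusted p = 0.00693) and Dach1 -1.07 (limma adjusted p = 0.416), and the block changed no call among the 8, while over all genes it called 9 lower and 0 higher in place of 23 and 2. Arrays of the same number correlated by 0.189, -0.185 and 0.0614 in their deviations from the group means. Of the 6 arrays, 2 correlated best with their own number. These values show no pairing by number, but with 3 arrays a genotype they cannot exclude it. With 1 array left out the calls over all genes ran from 2 lower and 0 higher (without Evi1 Tg 2) to 173 and 383 (without WT 3). With background at the 95th percentile of silent genes (95.5), 4 of the 8 genes lay above it, and at the highest of them, Odf1 (8629), 0 did. Whether the Odf1 probe set detects Odf1 alone was not tested, and above the next gene, Acta1 (115), there were 4. Signal near background limits what Eya2, Eya4, Six2 and Six5 can show.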
